A study of Homo sapiens with 4 samples.

Results

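The PAF complex, SPT4, SPT5, SPT6, IWS1 and SETD2 travel with RNA polymerase II (Pol II) through gene bodies. The 10 genes that encode them were chosen by name, as the listed genes with the symbols PAF1, CTR9, CDC73, LEO1, RTF1, SUPT4H1, SUPT5H, SUPT6H, IWS1 and SETD2. All 10 were found among the 60708 genes of the count table. Their nascent RNA was compared between cells given RPB1 with a wild-type C-terminal domain (CTD) and cells given RPB1 with a mutant CTD.

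All libraries came from HEK293, a human embryonic kidney cell line, in which endogenous RPB1, the largest Pol II subunit, carried a degron, a tag for auxin-triggered destruction. Cells of both groups were transfected transiently with an RPB1 plasmid, received auxin from 48 h after transfection and were kept in it for 48 h. The plasmid encoded either 52X WT, the wild-type CTD with its 52 repeats, or 52X T4A, in which every repeat carries alanine in place of Thr4. RNA made during a 20-min pulse of 4-thiouridine was purified and sequenced (TT-seq), so introns were read along with exons. There were 2 libraries in each group, labelled replicates 1 and 2. The labels do not say whether these came from separate cultures, so each p-value measures only the spread between these libraries, which may be technical.

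The total was 39249066 and 45605027 counts in 52X WT replicates 1 and 2, and 33853507 and 33188536 counts in 52X T4A replicates 1 and 2. Log2 CPM correlated at 0.991 between the WT libraries and at 0.979 between the T4A libraries, and T4A replicate 1 stood farthest from the others (0.974 to 0.979). POLR2A, which encodes RPB1, had 9640 and 8720 normalized CPM (counts scaled to library size with TMM factors) in WT and 7492 and 8083 normalized CPM in T4A, and reads from the plasmid and from the endogenous gene were not separated. Of 10 HEK293 markers, 8 had at least 10 counts in every library, while NEFM and INA did not. Their summed level ran from 182 to 219 normalized CPM, against 3.49 to 5.48 normalized CPM for 10 markers of other cell types. Of these other markers 2, ALB and COL1A1, also had at least 10 counts in every library, COL1A1 at 1.85 to 2.95 normalized CPM. PECAM1 was planned as a further marker but was not found by name.

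SPT5 and SPT4 form DSIF, which holds Pol II paused near the promoter with NELF and, once phosphorylated by P-TEFb, stays with Pol II as an elongation factor. The PAF complex, built on the scaffold CTR9 with PAF1, LEO1, CDC73 and the loosely held RTF1, binds elongating Pol II, stimulates it and promotes ubiquitination of histone H2B. SPT6 is a histone chaperone that binds the phosphorylated linker next to the CTD. IWS1 binds SPT6, and SETD2, which trimethylates histone H3 at Lys36, binds the CTD itself through its SRI domain.

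Per length, the nascent RNA of 9 of the 10 genes lay above the median of protein-coding genes. In normalized CPM per kb of listed gene span, averaged over the 4 libraries, CDC73 was highest at 3.04, followed by PAF1 at 2.48, SUPT6H at 2.15, SETD2 at 1.91, SUPT5H at 1.81, CTR9 at 1.64, IWS1 at 1.502, LEO1 at 0.992 and RTF1 at 0.933. The median of 15329 tested protein-coding genes was 0.630 on this scale, and these 9 genes lay between the 59.0 and the 87.7 percentile. The ranges over libraries did not overlap between CDC73 and PAF1, between SUPT6H and SETD2, between IWS1 and LEO1, or between RTF1 and SUPT4H1. All other neighbours in the order overlapped and were not told apart.

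**Figure D1:**
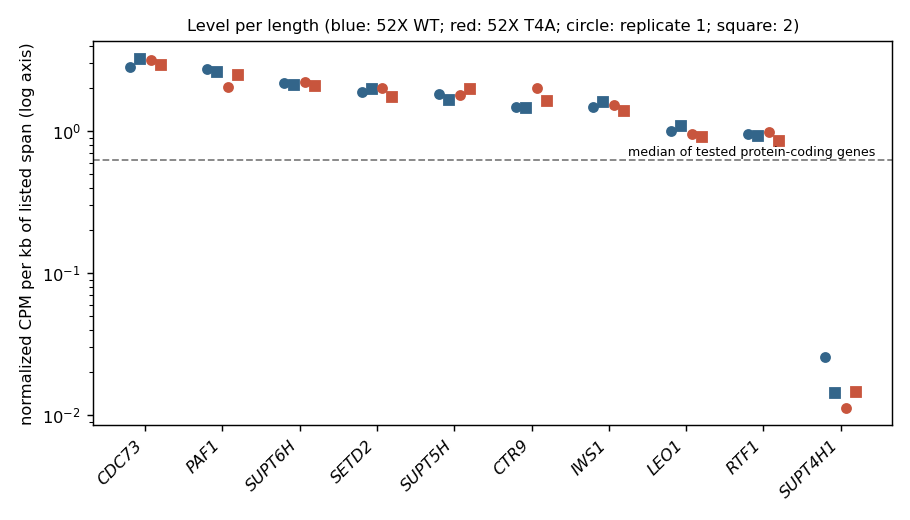
Normalized CPM per kb of listed span (vertical log axis) of the 10 genes in each library, with 52X WT in blue, 52X T4A in red, circles for replicate 1 and squares for replicate 2. The dashed line is the median of tested protein-coding genes, 0.630. All genes except SUPT4H1 lie above it in every library.

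The order depends on which span is used, since some listed spans reach beyond the RefSeq gene. The listed span of IWS1 is 90680 bp against 46525 bp in RefSeq, and that of CTR9 is 50380 bp against 28501 bp. Per kb of RefSeq span the WT mean was 2.998 normalized CPM for IWS1 in place of 1.54, and 2.60 for CTR9 in place of 1.47, which placed both above SUPT6H (2.15). CDC73 was 3.03 with either span. LEO1 and RTF1, 1.05 and 1.07 per RefSeq kb, stayed below the other 7 of these 9 genes. Per kb of exon, with the same intronic reads still counted, CDC73 was highest at 38.3 and IWS1 followed at 33.5, SETD2 at 20.0, LEO1 at 13.4, CTR9 at 12.8 and RTF1 at 12.3. On that scale SUPT6H (8.29), SUPT5H (8.21) and PAF1 (5.22) were lowest, so LEO1 and RTF1 no longer lay below the others.

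SUPT4H1, the gene of SPT4, was hardly measured. WT replicates 1 and 2 held 8 and 5 counts of it, T4A replicates 1 and 2 held 3 and 4, too few for the test. Of its listed span (chr17:58345175-58353093, GRCh38), 99.6% lies inside ENSG00000285897, a longer protein-coding gene of the same strand that had 16, 16, 4 and 8 counts in WT replicates 1 and 2 and T4A replicates 1 and 2. How reads over both genes were assigned is not given in the sources used here, and the part of this overlap in the low counts was not tested. TSPOAP1-AS1, a lncRNA gene of the other strand with 124 to 158 counts a library, covers 100% of the span. The other 9 genes have at most 0.0610% of their span inside another gene of their strand. Genes of the other strand cover 85.8% of LEO1, 65.3% of IWS1, 9.08% of CTR9 and at most 6.80% of the other 6 genes, and the strand setting of the counting is not given in the sources used here. The level of DSIF is therefore described from SUPT5H alone.

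The start of 2 of these genes lies beside that of a gene on the other strand. The RefSeq starts of SUPT6H and SDF2 are 11 bp apart and those of PAF1 and MED29, which encodes a Mediator subunit, are 272 bp apart. A promoter window was found in RefSeq (GRCh38.p14) for 9 of the 10 genes, CDC73 being the exception. Shown are the 250 bases before the start of PAF1 (chr19:39391107-39391356, minus strand), CTR9 (chr11:10750996-10751245, plus strand) and SUPT6H (chr17:28661955-28662204, plus strand), because PAF1 and CTR9 had the largest differences between the groups in opposite directions and SUPT6H the smallest. Capitals mark the 7 short motifs searched on both strands.
PAF1: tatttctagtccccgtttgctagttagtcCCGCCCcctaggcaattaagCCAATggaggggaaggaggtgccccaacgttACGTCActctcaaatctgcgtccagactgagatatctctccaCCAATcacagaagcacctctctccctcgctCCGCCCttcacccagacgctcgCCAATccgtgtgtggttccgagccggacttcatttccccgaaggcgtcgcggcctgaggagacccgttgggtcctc
CTR9: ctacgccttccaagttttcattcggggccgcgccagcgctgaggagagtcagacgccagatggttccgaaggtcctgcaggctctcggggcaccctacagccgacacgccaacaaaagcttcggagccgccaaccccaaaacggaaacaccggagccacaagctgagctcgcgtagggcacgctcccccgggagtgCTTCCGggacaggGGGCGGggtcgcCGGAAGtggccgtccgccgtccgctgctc
SUPT6H: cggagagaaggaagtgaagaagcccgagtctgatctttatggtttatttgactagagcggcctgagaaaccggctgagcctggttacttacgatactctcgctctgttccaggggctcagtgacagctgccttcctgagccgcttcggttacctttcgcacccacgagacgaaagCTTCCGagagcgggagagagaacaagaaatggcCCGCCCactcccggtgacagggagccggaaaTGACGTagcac

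The PAF1 window holds CCAAT (the NF-Y box) 3 times, beginning 201, 128 and 76 bases before the start, and TGACGT (the CRE core) once. The CTR9 window holds CGGAAG (the ETS core) 2 times, beginning 54 and 29 bases before the start, on opposite strands around a GC box (GGGCGG). In SUPT6H an ETS core, a GC box and a CRE core were found. Most of the SUPT6H window lies inside the listed span of SDF2 (chr17:28648346-28662189) on the other strand. The PAF1 window reaches into the listed span of MED29 (chr19:39391303-39400641) on the other strand. Over the 9 windows the GC box was present in 8, against 42.3% of 27305 RefSeq promoters, the ETS core in 3 (16.8%), the NF-Y box in 2 (33%), the CRE core in 2 (7.4%) and AAGATGGC (the YY1 core) in 1 (1.4%), that of SUPT5H. TATAAA and GCGCATGC (the NRF1 core), held by 11.1% and 2.8% of the promoters, did not occur in them. The RefSeq promoters compared were the first window of each gene symbol, not matched to these genes by type or level. Letters alone do not show that a factor binds.

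The comparison of 52X T4A with 52X WT asks whether synthesis of these RNAs, relative to other genes, changes with RPB1 that lacks CTD Thr4. Counts were scaled to library size with TMM factors, so a rise or fall shared by all genes could not be seen. None of the 9 genes tested passed an adjusted p-value of 0.05 in edgeR's quasi-likelihood test, where 0.00429% of all 23321 genes tested passed, and DESeq2 called 0 of the 8 to which it gave an adjusted p-value, all except PAF1, against 9.93% of all genes with one. At an unadjusted p-value of 0.05, edgeR found 1 of the 9 higher in T4A (background 7.45%) and 0 lower (background 8.02%). Both T4A libraries lay above both WT libraries for 1 gene, CTR9, against 24.8% of all genes tested, and below both for 2 genes, PAF1 and LEO1, against 24.7%. These shares are near or under the background. The median log2 fold change of the 9 genes was −0.04, against 0.00 over all genes tested.

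**Figure D2:**
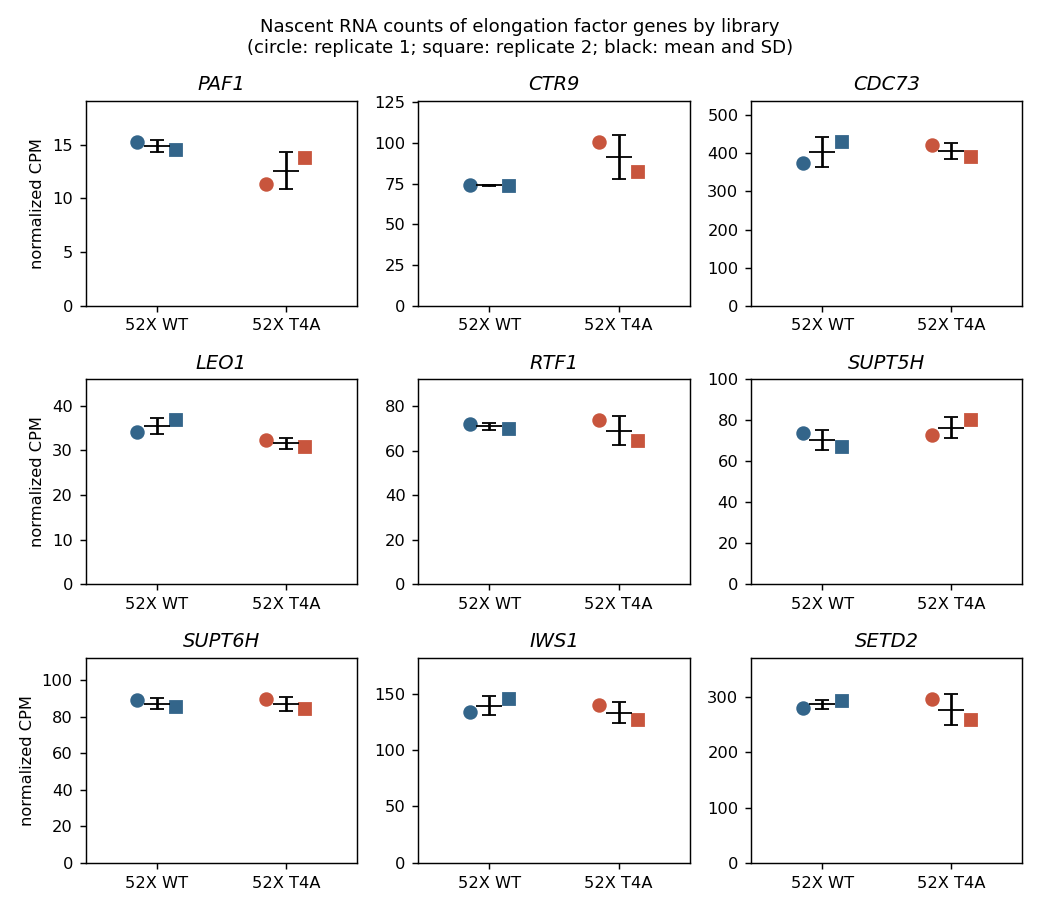
Normalized CPM (vertical axes, each from 0) of the 9 tested genes in each library, with 52X WT in blue and 52X T4A in red, circles for replicate 1, squares for replicate 2, and the mean with its SD (n = 2) in black. T4A lies above WT without overlap in CTR9 and below it in PAF1 and LEO1.

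Among the PAF complex subunits, CTR9 had the largest difference. CTR9 (chr11:10751246-10801625, GRCh38) had 74.2 and 73.8 normalized CPM in WT replicates 1 and 2, and 101 and 82.0 normalized CPM in T4A replicates 1 and 2. The WT libraries differed by 0.01 on the log2 scale while the T4A libraries differed by 0.30, with both above WT. The log2 fold change was 0.31 (standard error 0.11, 95% interval 0.05 to 0.56, edgeR adjusted p = 0.269), which did not pass after adjustment. This value rests on T4A replicate 1, since without that library it was 0.16 (edgeR adjusted p = 0.654) and without T4A replicate 2 it was 0.43 (edgeR adjusted p = 0.00508), in a fit that called 5.65% of all genes higher. Over the 14 alternative fits, edgeR's and DESeq2's, the adjusted p-value lay between 0.00508 and 0.693.

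PAF1 and LEO1 differed the other way. PAF1 (chr19:39385629-39391154) had 15.3 and 14.5 normalized CPM in WT and 11.4 and 13.8 normalized CPM in T4A. It is the shortest of the 9 genes, 5526 bp, and rests on 381 to 638 counts a library. The T4A libraries were both lower than WT but differed from each other by more than the closer of them did from WT, and the log2 fold change was −0.24 (standard error 0.15, 95% interval −0.59 to 0.11, edgeR adjusted p = 0.462). Without T4A replicate 1 the difference was −0.10.

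LEO1 (chr15:51938025-51971778), whose product binds PAF1 directly, had 34.1 and 36.7 normalized CPM in WT and 32.4 and 30.7 normalized CPM in T4A. Both T4A libraries were below both WT libraries by a small margin. TMOD3, which overlaps LEO1 on the other strand by 9271 bp, had 90.8 and 89.8 normalized CPM in WT and 85.4 and 79.5 in T4A, while MAPK6, which overlaps it by 19673 bp, had 64.5 and 66.3 in WT and 69.3 and 65.9 in T4A. The log2 fold change was −0.17 (standard error 0.11, 95% interval −0.41 to 0.08, edgeR adjusted p = 0.465), and it lay between −0.25 and −0.09 over the 14 alternative fits.

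CDC73 and RTF1 overlapped between the groups. CDC73 (chr1:193121983-193254815), which encodes the tumor suppressor parafibromin, is the second longest of the 10 genes at 132833 bp. It held 13485 to 18949 counts a library, the most of any of them. It had 375 and 430 normalized CPM in WT and 421 and 390 normalized CPM in T4A, so that the WT libraries spanned both T4A libraries. Its log2 fold change was 0.01 (95% interval −0.25 to 0.27). RTF1 (chr15:41408408-41483563), whose product also binds SPT5, had 72.2 and 70.1 normalized CPM in WT and 73.8 and 64.5 normalized CPM in T4A, with a log2 fold change of −0.04 (95% interval −0.26 to 0.18). SKIC8, the gene of a further subunit of the human complex, named here after its values were seen, had 49.1 and 51.3 normalized CPM in WT and 50.2 and 46.9 in T4A.

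**Figure D3:**
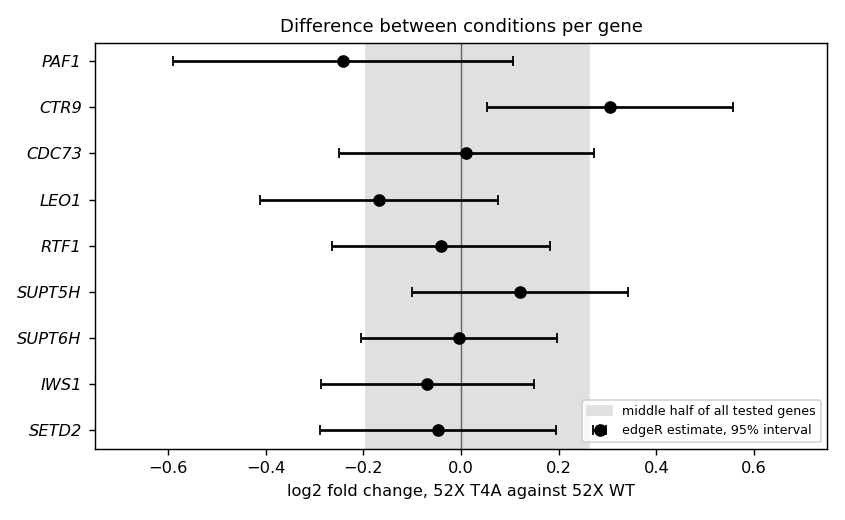
Log2 fold change, 52X T4A over 52X WT (horizontal axis) of the 9 tested genes, with edgeR's 95% interval (n = 2 libraries in each group) and the interquartile range of all tested genes in grey. Only the interval of CTR9, 0.05 to 0.56, leaves out 0.

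SUPT5H (chr19:39436156-39476670), the gene of SPT5, had 73.9 and 66.8 normalized CPM in WT and 72.9 and 80.1 normalized CPM in T4A. The groups overlapped, T4A replicate 1 lying between the WT libraries. The log2 fold change was 0.12 (standard error 0.10, 95% interval −0.10 to 0.34, edgeR adjusted p = 0.567). Its listed start is near that of RPS16 on the other strand, but its RefSeq start lies 9633 bp away from that of RPS16.

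SUPT6H (chr17:28662198-28702679), the gene of SPT6, was the most even of the 9. It had 89.1 and 85.1 normalized CPM in WT and 89.7 and 84.0 normalized CPM in T4A, a log2 fold change of −0.0048 (standard error 0.09, 95% interval −0.21 to 0.20). IWS1 (chr2:127436207-127526886) had 134 and 145 normalized CPM in WT and 140 and 126 in T4A, with a log2 fold change of −0.07 (95% interval −0.29 to 0.15). SETD2 (chr3:47016429-47164113), the longest of the 10 genes at 147685 bp, had 281 and 292 normalized CPM in WT and 296 and 258 in T4A, with a log2 fold change of −0.05 (95% interval −0.29 to 0.19). In each of these the T4A libraries fell on both sides of a WT library. The intervals of all 9 tested genes lay between −0.59 and 0.56, so the data do not show that the groups were alike.

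The T4A libraries did not move the same way for most of these genes. Against the WT mean, T4A replicate 1 was lower for 2 of the 9 genes, PAF1 and LEO1, while T4A replicate 2 was lower for 7, all except CTR9 and SUPT5H. Their median log2 difference from the WT mean was 0.05 in T4A replicate 1. In the other T4A library it was −0.11, while over all genes tested the medians were 0.00 and −0.01. T4A replicate 1 was below T4A replicate 2 for PAF1 and SUPT5H only, 2 of 9, against 41.7% of all genes tested. Summed over the PAF complex subunits, of which CDC73 holds the largest part, the level was 571 and 625 normalized CPM in WT and 639 and 581 normalized CPM in T4A, so the groups overlapped.

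**Figure D4:**
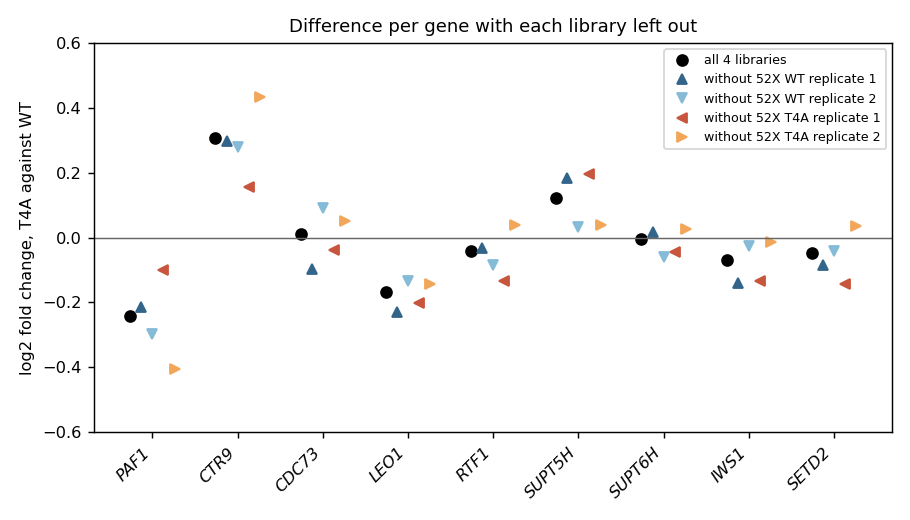
Log2 fold change, 52X T4A over 52X WT (vertical axis) of the 9 tested genes with all 4 libraries (black) and with each library left out. CTR9 and SUPT5H stay above 0 and PAF1, LEO1 and IWS1 below it, while CDC73, RTF1, SUPT6H and SETD2 fall on both sides.

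Genes that act with these factors were read from 4 lists, and none of their members passed an adjusted p-value of 0.05 in edgeR's test. DESeq2 called 1 of 16 genes in the H3K36 methylation list, DNMT3A, and 0 of 13, 7 and 7 in the other lists, against the background of 9.93%. Without T4A replicate 2, edgeR called 4 other elongation factors (1 higher, 3 lower), 2 lower genes of H2B ubiquitination and H3K79 methylation, 3 lower genes of H3K36 methylation and 1 lower kinase gene, CDK9, named here after its value was seen, in a fit that called 5.65% of all genes higher and 8.16% lower. Of 15 other elongation factors (NELF subunits, FACT, TFIIS and others), 1 lay lower and 0 lay higher in edgeR before adjustment (p-value of 0.05), and the median log2 fold change was −0.05, which was −0.12 without T4A replicate 2 and above 0 with library size only (0.0024). The gene that was lower is NELFA, a NELF subunit, with 37.0 and 36.8 normalized CPM in WT and 25.9 and 32.2 in T4A (log2 fold change −0.35, edgeR adjusted p = 0.274). Of 7 genes of H2B ubiquitination and H3K79 methylation, 1 was higher and 0 lower, and the median was −0.12, which was −0.02 without WT replicate 2 and −0.02 without T4A replicate 1. The gene that was higher is UBE2A, an E2 enzyme that the PAF complex acts with, at 57.2 and 59.6 normalized CPM in WT and 72.3 and 68.6 in T4A (log2 fold change 0.27, edgeR adjusted p = 0.250). Of 7 P-TEFb and Ser2 kinase genes, 0 were higher and 0 lower, with a median of 0.03, which was −0.04 without WT replicate 1 and −0.06 with the gene length trend removed.

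The genes that write, erase or read H3K36 methylation, the mark that SETD2 completes, had the lowest median of the 5 groups with all 4 libraries, but not without T4A replicate 2, where it was −0.11 and that of the other elongation factors −0.12. Of 16 tested genes, 11 had both T4A libraries below both WT libraries and 3 had both above, against 24.7% and 24.8% of all genes tested. Among the 15 other elongation factors, 4 were below and 1 above in this way. In the H2B and H3K79 list 1 of 7 was below and 2 were above, and likewise in the P-TEFb and Ser2 kinase list. The H3K36 methylation list was chosen with earlier results of these data known, and its genes were read in the same 4 libraries. These shares are therefore a description and not independent support. The median log2 fold change was −0.16, against 0.00 over all genes tested. At an unadjusted p-value of 0.05, 2 were lower in edgeR and 0 higher, against 8.02% and 7.45% of all genes tested. DNMT3A, a DNA methyltransferase that reads H3K36 methylation, had 52.4 and 46.5 normalized CPM in WT and 35.6 and 38.2 in T4A (log2 fold change −0.42, standard error 0.11, edgeR adjusted p = 0.204). NSD2, an H3K36 dimethyltransferase, had 259 and 243 normalized CPM in WT and 218 and 211 in T4A (log2 fold change −0.23, edgeR adjusted p = 0.304). Relative to the WT mean, the list's median was −0.09 in the first T4A library and −0.18 in the second. KDM4A, with a listed span of 55370 bp, was at 0 in all 4 libraries and did not enter the test. The cause of these counts of 0 was not tested, so they do not show that its RNA was absent.

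**Figure D5:**
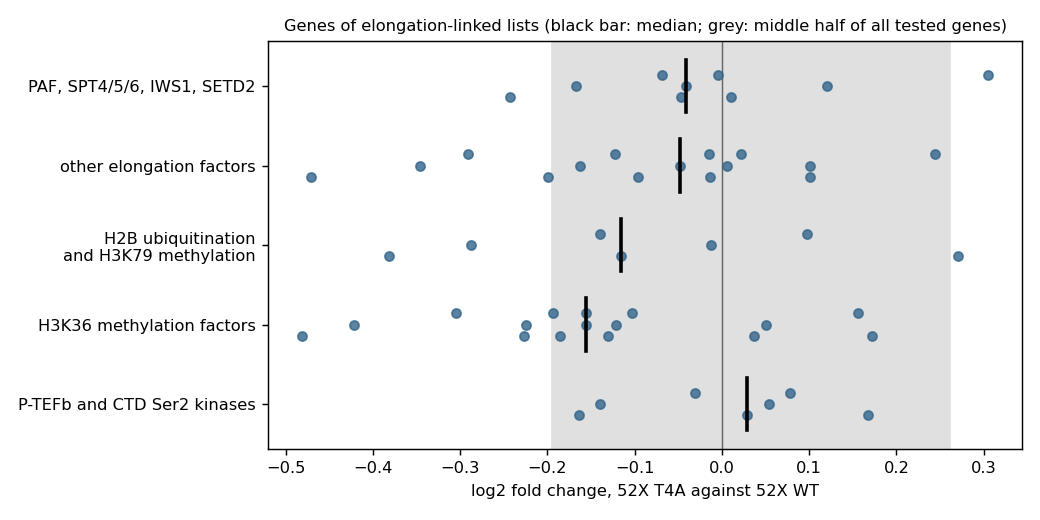
Log2 fold change, 52X T4A over 52X WT (horizontal axis) of each tested gene of the 5 groups, with the median as a black bar and the interquartile range of all tested genes in grey. With all 4 libraries the H3K36 methylation list has the lowest median, −0.16, and the P-TEFb and Ser2 kinase list the highest, 0.03.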

How the data were processed

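TT-seq libraries of 2 groups with 2 libraries each were analysed. The authors deposited raw counts per Ensembl gene, from uniquely aligned reads by the column names. The submitters' processing notes name FastQC, cutadapt 4.6, STAR 2.7.11b, Picard, deepTools 3.5.6 and GRCh38, and the counter's version, its strand setting and whether both mates were counted are not given in the sources used here. The listed length equals the span of every gene, so intronic reads were counted. Of genes with 1 to 20 counts, between 82.1% and 86.2% in each library had an even count. Whether each count stands for a fragment or for a single mate was not tested. Gene names came from GENCODE by stable identifier (58700 matched), and 99.974% of 19052 protein-coding genes overlapped their GRCh38 position in RefSeq.

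The groups were compared in R 4.3.3 by edgeR 4.0.16 (TMM normalization, default filter on low counts, quasi-likelihood test, Benjamini-Hochberg adjustment over 23321 genes, called at an adjusted p-value below 0.05), after a check on simulated data. TMM factors ran from 0.967 to 1.04. Standard errors were derived from the F statistic, and intervals from the degrees of freedom of the test. DESeq2 1.42.0, other normalizations and filters, a replicate block, a loess fit on gene length and leaving out each library were the alternatives. The members and lists were chosen with earlier results of these data known. The text names all members, POLR2A, genes that overlap a member and, in each list, up to 4 genes of largest difference at an unadjusted p-value below 0.05. Named outside this rule were SKIC8, CDK9, KDM4A, RPS16, MED29, SDF2 and the markers NEFM, INA, ALB, COL1A1 and PECAM1. Over all genes tested, the replicate 1 minus replicate 2 difference in WT correlated with that in T4A at 0.00498. This value cannot tell whether same-numbered cultures were handled as pairs, which the labels do not say.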

Additional observations from a re-analysis of the deposited data

How the results depend on the processing

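Over 126 alternative values of the 9 tested genes, 105 kept their direction and stayed short of the threshold, or had no adjusted p-value (PAF1 in DESeq2), 20 turned sign, and 1 passed it, CTR9 without T4A replicate 2. Halved counts were tried after seeing the data, and for the changes below the cause was not tested. Against 1 gene called among all tested (3607 at an unadjusted p-value of 0.05), DESeq2 called 888, no filter 150, the gene length trend removed 22, the replicate block 533, and the replicate block with the gene length trend removed 410. With 1 library left out, which leaves a lone sample assumed to vary like the other group, the count ran from 0 (without WT replicate 2) to 3466 (without T4A replicate 2), was 3 without WT replicate 1 and 333 without T4A replicate 1, and the number of the 10 genes called ran from 0 to 1.

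The sign of 5 genes near 0 turned, never past the threshold. CDC73 was −0.0027 with DESeq2, −0.0135 with no filter, −0.0944 with the gene length trend removed and −0.0900 with the replicate block added to it. With library size only, RTF1 was 0.0072, SUPT6H 0.0444 and SETD2 0.0022, and with upper quartile factors RTF1 was 0.0365, SUPT6H 0.0727, IWS1 0.0101 and SETD2 0.0316. SUPT6H was 0.0073 with TMM over protein-coding genes, 0.0036 with at least 10 counts in every library and 0.0170 with halved counts. With 1 library left out, log2 fold changes ran from −0.0960 to 0.0924 for CDC73, −0.1332 to 0.0374 for RTF1, −0.0585 to 0.0270 for SUPT6H and −0.1430 to 0.0350 for SETD2. Over all fits the median ran from −0.2722 to −0.0771 for the H3K36 methylation list and from −0.1807 to −0.0162 for the H2B and H3K79 list. It fell on both sides of 0 for the 9 genes (−0.1346 to 0.0365), the other elongation factors (−0.1225 to 0.0306) and the P-TEFb and Ser2 kinase list (−0.0593 to 0.1071).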

Other observations

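Genes inside or beside these loci, most of them on the other strand, gave values of their own. IWS1 spans the lncRNA gene ENSG00000231731, with 10 and 8 counts in WT and 40 and 14 in T4A (log2 fold change 1.86, standard error 0.65, edgeR adjusted p = 0.259), while IWS1 itself had 4370 to 6408 counts. B3GALT2, inside CDC73 on the other strand, had 16 to 20 counts a library, against 13485 to 18949 for CDC73. NDUFAF1, which overlaps RTF1 by 996 bp on the other strand, had 7.67 and 7.99 normalized CPM in WT and 7.72 and 7.23 in T4A (log2 fold change −0.07). TSPOAP1-AS1, across SUPT4H1 on the other strand, had a log2 fold change of 0.18 (edgeR adjusted p = 0.732). ENSG00000285897, on the same strand as SUPT4H1, had one of −1.12 (edgeR adjusted p = 0.413). ENSG00000265205, inside SUPT6H on the other strand, had 0 to 4 counts. MIR1278, inside CDC73 on the same strand, was listed at 0 in all 4 libraries, as were RNU4-48P, MRPL57P3, SNORD97, RNU6-1169P and ENSG00000276735.

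SAMD4B, which ends within PAF1 on the other strand with an overlap of 82 bp, had 68.5 and 63.1 normalized CPM in WT and 44.4 and 49.0 normalized CPM in T4A (log2 fold change −0.50, standard error 0.10, edgeR adjusted p = 0.173). MED29, which starts 272 bp from PAF1, had 49.9 and 49.6 normalized CPM in WT and 55.0 and 56.0 in T4A (log2 fold change 0.16, edgeR adjusted p = 0.425), while PAF1 was −0.24. SDF2, which starts 11 bp from SUPT6H, had 27.7 and 27.3 normalized CPM in WT and 26.4 and 26.3 in T4A (log2 fold change −0.06). EIF4G2, which overlaps the end of the listed CTR9 span by 4576 bp on the other strand, had 247 and 248 normalized CPM in WT and 276 and 281 in T4A (log2 fold change 0.17, edgeR adjusted p = 0.397). MED29 and SDF2 were chosen after their values were seen.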
